A study of Homo sapiens with 32 samples.

Results

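Acetylation of histone H3 at the K27 residue (H3K27ac) was followed at 5 gene loci of the human genome, GJA5, POU2AF3, PAWR, TEX101 and GNG12, out of 16329 genes with at least 1 measured region. A locus took in every region whose nearest protein-coding start site within 100 kb belonged to the gene, and every region that overlapped the gene body. This gave 30 of the 92108 regions: 3 at GJA5, 3 at POU2AF3, 2 at PAWR, 9 at TEX101 and 13 at GNG12. The genes were chosen by measured values of these data. GJA5, POU2AF3, PAWR and TEX101 are taken as selected on the difference of RA from DMSO at their top region, where they rank between 5 and 14 of all regions. The same regions rank 7 (GJA5), 11 (POU2AF3), 22 (PAWR) and 17 (TEX101) by the difference of PB+RA from DMSO, so the PB+RA libraries may have served in the choice as well. The top region of GNG12 ranks 255 by that difference and 4 by the difference of PB+RA from DMSO, so GNG12 is treated as selected on PB+RA. The differences used in the choice are given below as a description and carry no test.

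The cells were SK-N-BE(2)C, an established human neuroblastoma line of the adrenergic type, and they were treated for 5 days. The 4 groups were PB+RA (palbociclib with retinoic acid), RA alone, PB alone (1 µM) and DMSO, the solvent. Palbociclib blocks the kinases CDK4 and CDK6, which drive cells out of G1. Each group had 4 ChIP libraries, called biological replicates in the study's methods, and 4 input libraries. All groups came from a single cell line, so the values describe this line.

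H3K27ac lies on active promoters and enhancers. Retinoic acid enters the nucleus and binds retinoic acid receptors, which sit on DNA with a retinoid X receptor at pairs of short half-sites, and bound receptors recruit enzymes that acetylate histones. None of the 5 genes is a textbook marker of the sympathetic neuroblast. GJA5 encodes connexin 40, a gap junction channel of the atrium, the cardiac conduction system and arterial endothelium. POU2AF3 encodes a coactivator of the POU factor POU2F3, known from tuft cells. PAWR (Par-4) encodes a leucine zipper protein that promotes apoptosis. TEX101 encodes a membrane-anchored protein of male germ cells in the LY6/uPAR family. GNG12 encodes a gamma subunit of heterotrimeric G proteins.

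The promoters of these genes differ in base composition, and 3 of them are shown because the H3K27ac data bear on each in a different way. Each is the 300 bases from 250 before to 50 after the annotated gene start, read from the GRCh37 (hg19) assembly on the gene's own strand, with every CG pair in capitals. GJA5 (chr1:147245417-147245716, minus strand) lies inside the region with the mark in every library with RA. PAWR (chr12:80084695-80084994, minus strand) is a CpG-rich promoter that lay outside every region. GNG12 (chr1:68299101-68299400, minus strand) lies in a region with a peak in all 16 libraries.
GJA5 promoter: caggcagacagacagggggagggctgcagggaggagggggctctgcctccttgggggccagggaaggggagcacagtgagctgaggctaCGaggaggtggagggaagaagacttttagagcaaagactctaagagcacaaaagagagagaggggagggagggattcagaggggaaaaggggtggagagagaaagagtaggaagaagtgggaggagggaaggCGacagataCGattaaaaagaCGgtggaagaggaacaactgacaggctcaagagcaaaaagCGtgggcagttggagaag
PAWR promoter: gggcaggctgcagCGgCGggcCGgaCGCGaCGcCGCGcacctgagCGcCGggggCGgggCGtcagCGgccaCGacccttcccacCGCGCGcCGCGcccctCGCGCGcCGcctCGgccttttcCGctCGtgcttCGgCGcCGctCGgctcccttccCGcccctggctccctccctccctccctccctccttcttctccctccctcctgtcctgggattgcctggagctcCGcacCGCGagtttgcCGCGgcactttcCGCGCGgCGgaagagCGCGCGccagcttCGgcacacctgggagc
GNG12 promoter: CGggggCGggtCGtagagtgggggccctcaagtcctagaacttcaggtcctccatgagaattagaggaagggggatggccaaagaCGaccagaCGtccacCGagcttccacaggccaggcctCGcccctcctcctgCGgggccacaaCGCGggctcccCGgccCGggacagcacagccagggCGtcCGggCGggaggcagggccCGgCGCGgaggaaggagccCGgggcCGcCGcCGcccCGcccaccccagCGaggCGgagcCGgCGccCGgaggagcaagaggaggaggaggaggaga
The GJA5 window held 5 CG pairs, the PAWR window 44 and the GNG12 window 28. Over the 19807 protein-coding promoters of the same length the median was 18, and 23.8% of them held no more CG pairs than GJA5, 96.2% no more than PAWR and 73.7% no more than GNG12. The POU2AF3 window held 8 and the TEX101 window 1.

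The top region of each locus, the one with the largest difference of RA from DMSO, was searched for retinoid elements on both strands. The half-site searched was AGGTCA or the variant AGTTCA, and likewise the form GGGTCA or its variant GGTTCA. A direct repeat was a pair of such half-sites on the same strand, with NNNNN between them in a DR5, the spacer NN in a DR2 or a single base in a DR1. None of the 5 top regions held such a repeat. Among regions within 10% of the same length, 0.691% to 2.59% held a DR5, 5.24% to 22.2% a DR2 and 0.717% to 2.84% a DR1, so most regions of these lengths hold none. Single half-sites were also marked in the central 200 bases of each top region, and 3 of the 5 centres held at least 1, against 34.8% of the 91902 regions long enough for the window. The 3 are shown with the half-sites in capitals on the plus strand of GRCh37, since these stretches lay in the middle of regions acetylated with RA. They are GJA5 (chr1:147243533-147243732), PAWR (chr12:79980232-79980431) and GNG12 (chr1:68363304-68363503).
GJA5 region centre: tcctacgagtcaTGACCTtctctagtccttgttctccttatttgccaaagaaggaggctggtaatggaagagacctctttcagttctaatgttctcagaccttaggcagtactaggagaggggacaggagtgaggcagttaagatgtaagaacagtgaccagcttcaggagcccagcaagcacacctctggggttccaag
PAWR region centre: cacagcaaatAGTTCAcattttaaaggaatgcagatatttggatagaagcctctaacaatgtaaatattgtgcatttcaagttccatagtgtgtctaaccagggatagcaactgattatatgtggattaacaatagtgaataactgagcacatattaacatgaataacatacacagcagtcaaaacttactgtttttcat
GNG12 region centre: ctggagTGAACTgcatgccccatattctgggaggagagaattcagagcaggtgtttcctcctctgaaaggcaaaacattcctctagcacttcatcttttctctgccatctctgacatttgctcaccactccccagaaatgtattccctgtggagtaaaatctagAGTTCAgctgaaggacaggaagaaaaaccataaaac
A half-site in capitals as TGACCT or TGAACT is the same element read on the minus strand. A match is a run of letters and not a measured binding site.

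Library yield is known here only from the peak lists, because read depth is unknown. The PB+RA libraries had 78873 to 99155 broad peaks over 105 to 141 Mb, RA 87210 to 104392 over 136 to 154 Mb, PB 74677 to 93704 over 104 to 131 Mb, and DMSO 64516 to 92359 over 107 to 167 Mb. The ranges of PB+RA and PB overlap in both measures, as do those of RA and DMSO, while every RA library had more Mb under peaks than every PB library. Of 12 markers of the adrenergic line, 11 had a start-site peak in all 16 libraries, and the remaining one, MYCN, had no start site inside a region. The summed start-site widths of the 11 were 216 to 246 kb in PB+RA, 230.07 to 250.02 kb in RA, 254 to 272 kb in PB and 283 to 302 kb in DMSO. They were lower in every PB+RA library than in every PB library and in every RA library than in every DMSO library, and their part in the values below was not tested. None of 6 endothelial and none of 6 germ cell markers had a start-site peak in any library. Of 6 markers of heart muscle, 4 had a peak in some libraries, with summed widths of 1.92 to 2.997 kb in PB+RA, 0 to 1.47 kb in RA, 1.46 to 3.23 kb in PB and 2.79 to 7.65 kb in DMSO. Among blood markers, CD14 and SPI1 had peaks, with 1.18 to 2.71 kb in PB+RA, 2.69 to 3.33 kb in RA, 0.225 to 0.798 kb in PB and 0.789 to 3.03 kb in DMSO. PTPRC, CD3E and HBB had none, and the part of other cells in the values below was not tested. In cultured cells measured in bulk, more cells with the mark and more mark per cell cannot be told apart.

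At GJA5, every RA-treated library had broad peaks in the region that holds the gene start, and such peaks were absent or nearly so without RA. The locus held 6.36, 3.88, 5.00 and 3.56 kb under broad peaks in the 4 PB+RA libraries and 3.24, 3.20, 4.18 and 5.21 kb in the RA libraries. In the PB libraries it held 0, 0, 0.198 and 0 kb, and in the DMSO libraries no peak was listed. All 4 PB+RA libraries lay above all 4 PB libraries. PB+RA averaged 4.70 ± 1.27 kb and PB 0.0495 ± 0.0990 kb (SD, n = 4 each). On the log2(kb + 1) scale the difference of PB+RA from PB was 2.42.

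For comparison, in 14% of 14831 genes all 4 PB+RA libraries lay above all 4 PB libraries. These are the genes that passed the filter for the limma test of PB+RA against PB, a mean of at least 0.5 kb over the 8 libraries. GJA5, POU2AF3 and PAWR passed it through their PB+RA libraries alone. A gene that enters in this way has to differ between the groups, and its log2 difference depends on the 1 kb added before taking the logarithm. The values of PB+RA and PB at these 3 genes are therefore a description, and no test is given for them.

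The 3 regions of GJA5 all lie inside or across the gene (chr1:147228332-147245466, minus strand). The top one (chr1:147241077-147246188) is 5.112 kb long and runs from upstream of the start into the gene. Its deposited group means, in log2 normalised reads, were 9.88 in PB+RA, 9.42 in RA, 5.16 in PB and 4.16 in DMSO. The difference of RA from DMSO was 5.26, which ranks 6 of 92108, and that of PB+RA from PB was 4.72. Peaks in this region reached 11.3 to 14.9-fold enrichment over input in PB+RA and 10.0 to 15.2-fold in RA. The single PB peak, in PB replicate 3, reached 3.06-fold over 3.87% of the region. The smaller regions, in an intron (0.915 kb) and over an exon (0.612 kb), differed by 2.55 and 1.72 between PB+RA and PB and by 3.01 and 2.14 between RA and DMSO.

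**Figure D1:**
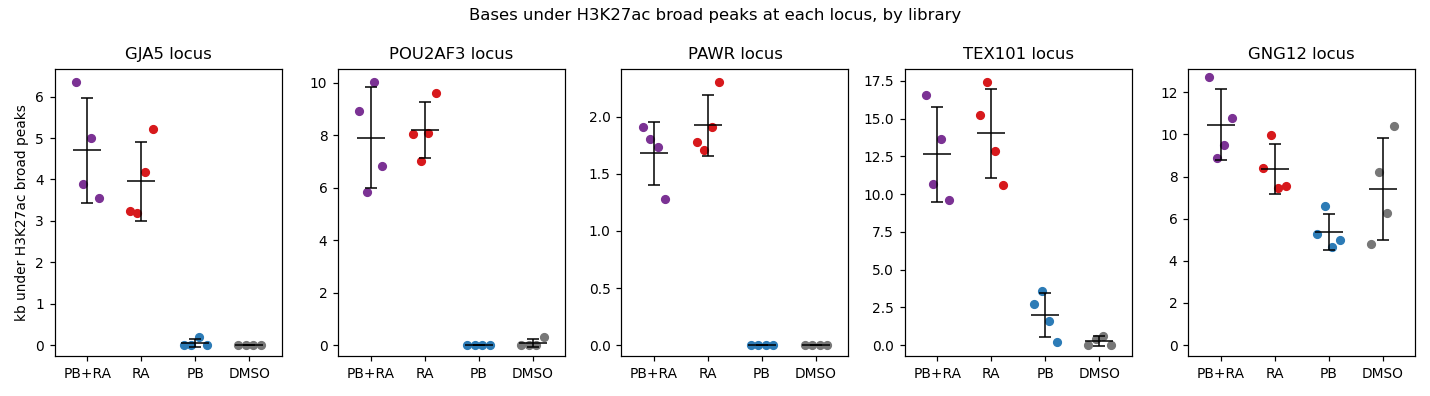
Kilobases under H3K27ac broad peaks (vertical axis, one panel a locus, each with its own scale) in the 4 libraries of PB+RA, RA, PB and DMSO. Points are libraries, and the black bar and whiskers are the mean and SD; GJA5, POU2AF3 and PAWR hold 1.28 kb or more in every library with RA and at most 0.313 kb in every library without it, whereas GNG12 holds 4.66 kb or more everywhere.

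Around GJA5, 2 of 7 regions within 150 kb differed by at least 1 (log2) between RA and DMSO, against 14.6% of all regions. Both lie beside ACP6, which encodes a lysophosphatidic acid phosphatase. The larger of them differed by 4.17 between RA and DMSO and by 2.48 between PB+RA and PB. The region over the ACP6 start site itself had group means of 7.73 in PB+RA, 7.95 in RA, 7.05 in PB and 7.32 in DMSO.

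At POU2AF3, the mark appeared in a wide block downstream of the gene rather than at its start. The locus held 8.94, 5.84, 10.03 and 6.82 kb under peaks in the PB+RA libraries, and 8.06, 7.02, 8.09 and 9.60 kb in the RA libraries. No peak was listed in the 4 PB libraries, and DMSO held 0, 0, 0 and 0.313 kb. All 4 PB+RA libraries lay above all 4 PB libraries, as they did in 14% of the 14831 genes. PB+RA averaged 7.91 ± 1.92 kb, against 0 kb in PB (SD, n = 4 each), a difference of 3.13 on the log2(kb + 1) scale.

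The top region of POU2AF3 (chr11:111200203-111208483) is intergenic and 8.281 kb long, and starts 29745 bases downstream of the nearest annotated POU2AF3 start site. Its deposited means were 9.86 in PB+RA, 9.24 in RA, 5.37 in PB and 4.47 in DMSO log2 normalised reads. It had a peak in 4 of 4 PB+RA libraries and 4 of 4 RA libraries, and in none of the 8 others. The peaks covered 68.6% to 99.0% of it in PB+RA and 66.4% to 83.5% in RA. Next to it, a region of 0.998 kb had a peak in 2 PB+RA and 3 RA libraries. The third region (chr11:111154191-111156729) overlaps an exon of POU2AF2, a paralogous coactivator, 12542 bases upstream of POU2AF3. There peaks covered 0.970, 0.162, 1.39 and 0.436 kb in PB+RA and 1.15, 1.01, 1.72 and 2.44 kb in RA, with 0.313 kb in DMSO replicate 4 and none in PB. This was the POU2AF3 region where the mean was lower in PB+RA than in RA by the widest margin, with a difference of -0.70.

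**Figure D2:**
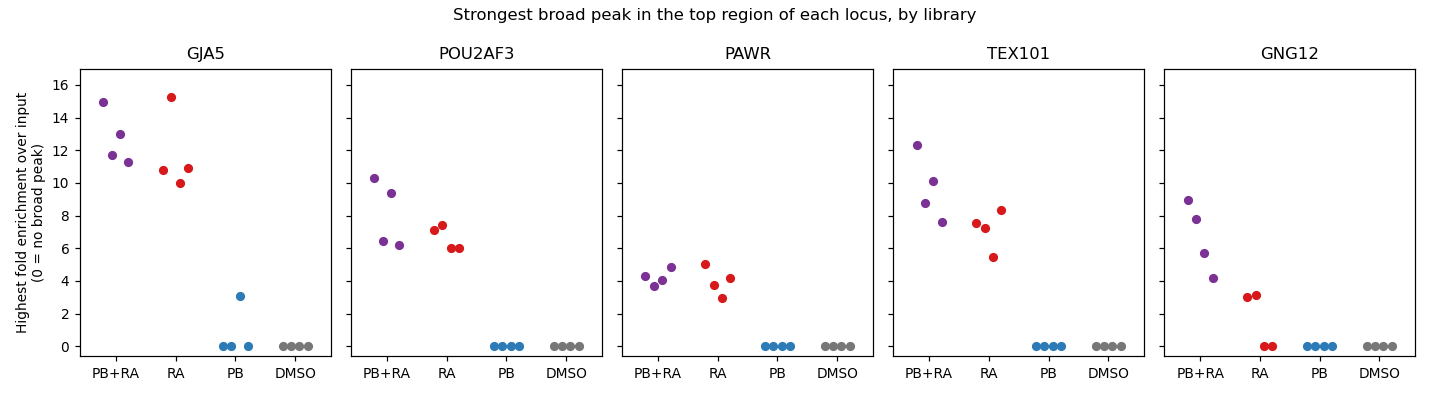
Highest fold enrichment over input of any broad peak in the top region of each locus (vertical axis, linear, 0 where the library has no peak there) in the 4 libraries of PB+RA, RA, PB and DMSO. The values lie between 10.0 and 15.2 at GJA5 and between 2.94 and 5.03 at PAWR in libraries with RA, and the only library without RA that has a peak is PB replicate 3 at GJA5, at 3.06.

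At PAWR, a narrow region inside the gene carried the mark with RA, while no region covered the CpG-rich promoter window. The locus held 1.91, 1.80, 1.74 and 1.28 kb under peaks in PB+RA and 1.78, 1.71, 1.91 and 2.31 kb in RA, and no peak was listed in any PB or DMSO library. The libraries with RA were close to one another and all above 0. PB+RA averaged 1.68 ± 0.28 kb, against 0 kb in PB (SD, n = 4 each), a difference of 1.42 on the log2(kb + 1) scale.

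The top PAWR region (chr12:79979342-79981321) is 1.98 kb long and lies near the far end of a gene of 116 kb (chr12:79968759-80084744, minus strand), 8993 bases downstream of the nearest annotated start, which belongs to a short transcript. The region overlaps an annotated exon of PAWR. Its deposited means were 7.14 in PB+RA, 7.30 in RA, 2.85 in PB and 2.03 in DMSO log2 normalised reads, and its difference of RA from DMSO, 5.28, ranks 5 of 92108. Only 3.63% of all regions have a lower GC content than this one, which is 34.2% GC. Peak enrichment was modest, 3.66 to 4.88-fold in PB+RA and 2.94 to 5.03-fold in RA. The other PAWR region (chr12:80083500-80084224) holds a PAWR start site but does not reach the promoter window shown above. It is 73.5% GC and had peaks in RA replicates 3 and 4 alone, of 0.300 and 0.612 kb. Its means were 2.65 in PB+RA, 4.57 in RA, 1.53 in PB and 2.96 in DMSO, so it was lower in PB+RA than in RA by 1.92, unlike the top region, where that difference was -0.16. Of 6 flanking regions within 150 kb, 1 differed by at least 1 between RA and DMSO, against 14.6% of all regions. Between PB+RA and PB 2 of them did so, against 12.4% of all regions. The one that differed between RA and DMSO, by 2.15, lies 1263 bases from a start site of PPP1R12A, a myosin phosphatase subunit. It had a peak in 3 PB+RA libraries and in none of the RA libraries.

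In kb under peaks, TEX101 had the widest difference among the 4 genes taken as selected on RA against DMSO. Its 9 regions lie inside the gene and on both sides of it, over a span of 60.9 kb. On the log2(kb + 1) scale its difference of PB+RA from PB was smaller than those of POU2AF3 and GJA5. The locus is described here by library. TEX101 held 16.5, 10.7, 13.7 and 9.61 kb under peaks in PB+RA and 15.2, 17.4, 12.8 and 10.6 kb in RA. PB libraries held 2.74, 3.55, 1.56 and 0.182 kb, and DMSO libraries 0, 0.410, 0.630 and 0 kb. Every PB+RA library lay above every PB library, and all 4 PB libraries had some peak. PB+RA averaged 12.6 ± 3.1 kb and PB 2.01 ± 1.47 kb (SD, n = 4 each). PB+RA rose by 2.32 over PB on the log2(kb + 1) scale (SE 0.36, 95% interval 1.52 to 3.11), with an adjusted p of 1.76e-03 in limma over 14831 genes and an exact two-sided permutation p of 0.0286, the smallest that 4 against 4 libraries allow. In the same limma test 10.8% of the genes rose. Since the PB+RA libraries may have served in the choice of TEX101, this test is not shown to be independent of it.

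The top TEX101 region (chr19:43883562-43886073), 19575 bases upstream of the nearest TEX101 start, had deposited means of 7.91 in PB+RA, 7.48 in RA, 3.09 in PB and 2.60 in DMSO log2 normalised reads. It had peaks in all 8 libraries with RA and in none without it. The longest region (7.764 kb) lies downstream of the gene. Its peaks covered 6.86, 3.28, 4.41 and 3.93 kb in PB+RA and 6.01, 7.42, 4.79 and 5.00 kb in RA. In PB they covered 1.60, 0.804, 0.468 and 0 kb, and DMSO had none. PB alone therefore stood between RA and DMSO at this region, with means of 8.59 in PB+RA, 8.41 in RA, 6.10 in PB and 4.98 in DMSO. At the end of the block (chr19:43941866-43944487) all 4 PB libraries had a peak, over 0.174, 1.54, 0.440 and 0.182 kb. The region that holds a TEX101 start site had peaks in 3 RA libraries and in no PB+RA library, with means of 3.21 in PB+RA, 4.50 in RA, 2.396 in PB and 2.77 in DMSO.

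The TEX101 regions adjoin those of its neighbour CD177, with gaps between regions. CD177 encodes a neutrophil surface protein of the same family. Together the 2 genes had 20 regions over 126 kb (chr19:43818563-43944487). All 20 differed by at least 1 between RA and DMSO, from 1.51 to 4.93, against 14.6% of all regions. Between PB+RA and PB 19 did so, against 12.4% of all regions. Both genes lie among the top-ranked regions by RA minus DMSO, so these counts are a description. The largest difference, 4.93, is at a CD177 region with a DMSO mean of 0. The 11 CD177 regions held 27.6, 22.7, 23.3 and 22.1 kb under peaks in PB+RA, 23.0, 23.7, 19.5 and 20.3 kb in RA, 4.05, 4.23, 2.61 and 1.39 kb in PB, and 0.660, 0.228, 0.804 and 0.590 kb in DMSO. The assignment to the nearest start site thus divides a run of neighbouring, separate regions between TEX101 and CD177. On the other side, the first region beside LYPD3 differed by 0.66 between RA and DMSO and by 0.76 between PB+RA and PB.

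**Figure D3:**
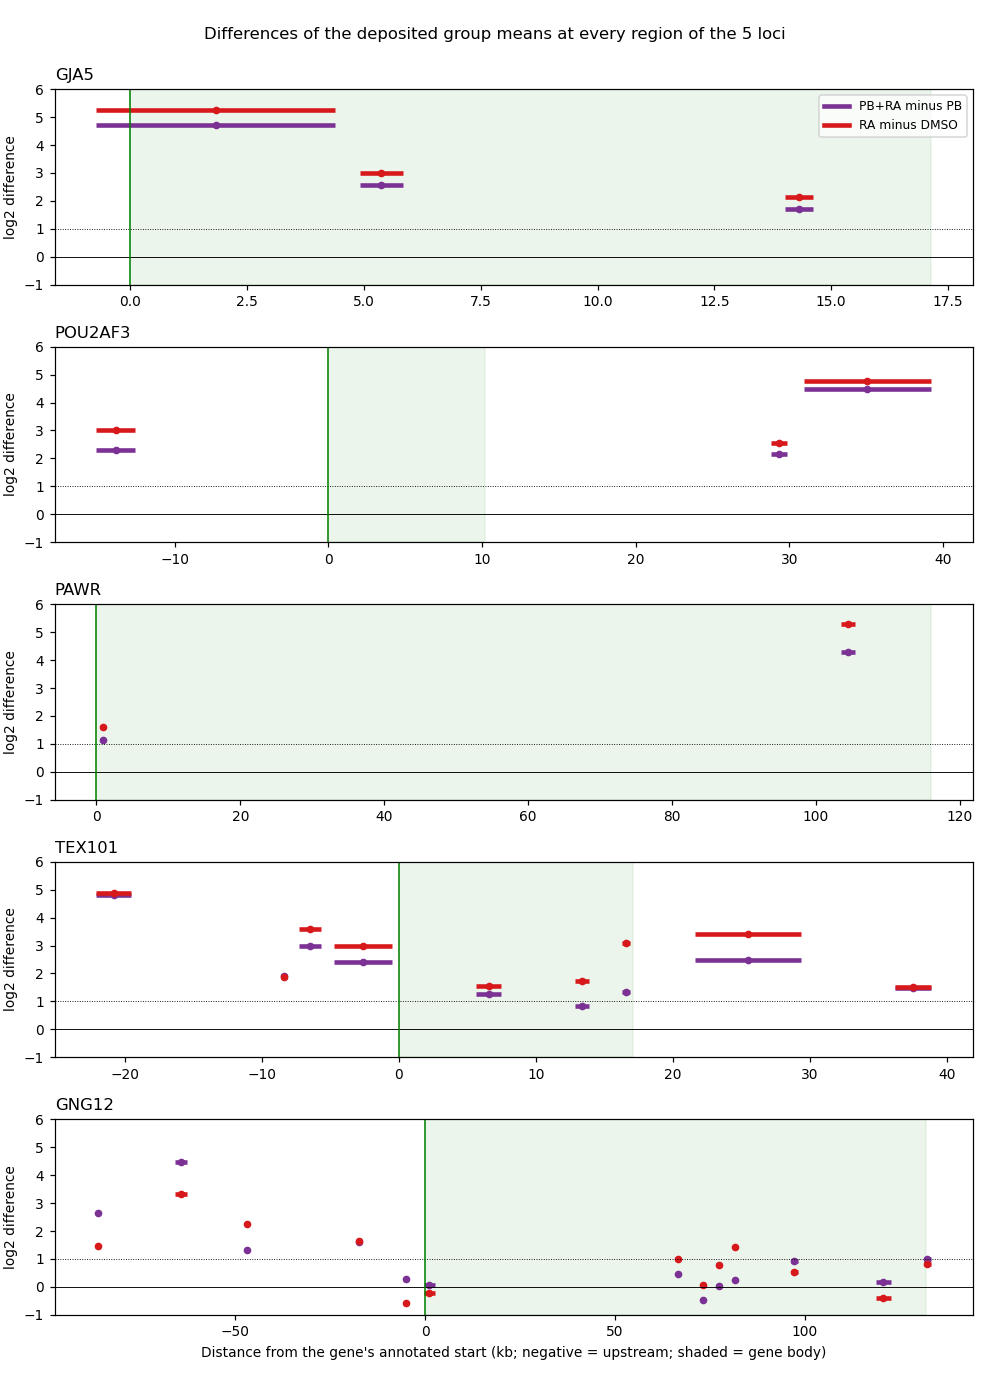
Difference of deposited group means (vertical axis, log2) for PB+RA minus PB and RA minus DMSO at every region of the 5 loci, against the distance from the annotated gene start (horizontal axis, kb, negative upstream). Bars span each region, shading marks the gene body and the dotted line a difference of 1; the top region lies at the start in GJA5 and away from it in the other 4, and the GNG12 regions in the gene body lie between -0.48 and 1.43.

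GNG12 was not a locus that lacked the mark without RA. It held 12.7, 8.87, 9.51 and 10.8 kb under peaks in PB+RA and 8.42, 9.99, 7.47 and 7.55 kb in RA. PB libraries held 5.25, 6.61, 4.66 and 4.97 kb, and DMSO libraries 4.78, 8.22, 6.25 and 10.4 kb. The RA range lay within the DMSO range, and the PB+RA range overlapped it. PB+RA averaged 10.5 ± 1.7 kb and PB 5.37 ± 0.86 kb (SD, n = 4 each), a difference of 0.85 on the log2(kb + 1) scale, for which no test is given because GNG12 is treated as selected on PB+RA.

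The region over the GNG12 start (chr1:68296465-68299506), which holds the promoter shown above, had a peak in all 16 libraries. Peaks there covered 2.88, 2.08, 1.84 and 2.29 kb in PB+RA, 1.98, 2.04, 2.42 and 2.56 kb in RA, 1.80, 2.79, 2.10 and 1.84 kb in PB, and 2.10, 2.90, 2.53 and 2.65 kb in DMSO. The deposited means were 7.70 in PB+RA, 7.91 in RA, 7.65 in PB and 8.13 in DMSO log2 normalised reads, so none of the treated groups was above DMSO. Among the 8 regions at the start and in the gene body, the median difference of PB+RA from RA was -0.36. Of these, 5 are nearer to the start of GADD45A, a stress response gene, than to that of GNG12, and belong to GNG12 as parts of its body.

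The larger part of the GNG12 difference of PB+RA from PB lay upstream, inside the antisense transcript GNG12-AS1. Values there were larger with both drugs than with RA. The start site and gene body averaged 6.83 kb in PB+RA, 7.47 kb in RA, 5.31 kb in PB and 7.375 kb in DMSO. The upstream regions averaged 3.64 kb in PB+RA and 0.0655 kb in PB. The 5 upstream regions held 4.11, 3.19, 3.03 and 4.22 kb under peaks in PB+RA, against 1.104, 2.18, 0 and 0.264 kb in RA. PB held 0.106, 0, 0.156 and 0 kb, and DMSO 0, 0, 0 and 0.146 kb. These sums are a description, since the regions were set apart by position after their values were seen and GNG12 is treated as selected on PB+RA. At single regions the PB+RA and RA libraries could overlap. In the region of 1.02 kb, PB+RA replicate 3 held 0 kb and RA replicate 2 held 0.652 kb. The differences of PB+RA from RA at the 5 regions ran from 1.04 to 2.72, with a median of 1.43, while 7.07% of all regions differed by at least 1.

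The top GNG12 region (chr1:68361800-68365007), 62650 bases upstream, had deposited means of 7.80 in PB+RA, 5.31 in RA, 3.32 in PB and 1.98 in DMSO. Its difference of RA from DMSO, 3.33, ranks 255, whereas its difference of PB+RA from DMSO, 5.83, ranks 4 of 92108. Peaks covered 2.395, 2.43, 2.32 and 2.88 kb in PB+RA and 0.770, 1.53, 0 and 0 kb in RA, at 4.18 to 8.94-fold enrichment in PB+RA and 3.02 to 3.16-fold in the RA libraries with a peak. PB and DMSO had none. Further upstream, toward DIRAS3, an imprinted Ras-related gene, PB+RA had the highest mean of the 4 groups at all 5 regions on that side, while the order of RA, PB and DMSO varied. The region at its start site had means of 4.37 in PB+RA, 2.33 in RA, 2.00 in PB and 0 in DMSO.

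**Figure D4:**
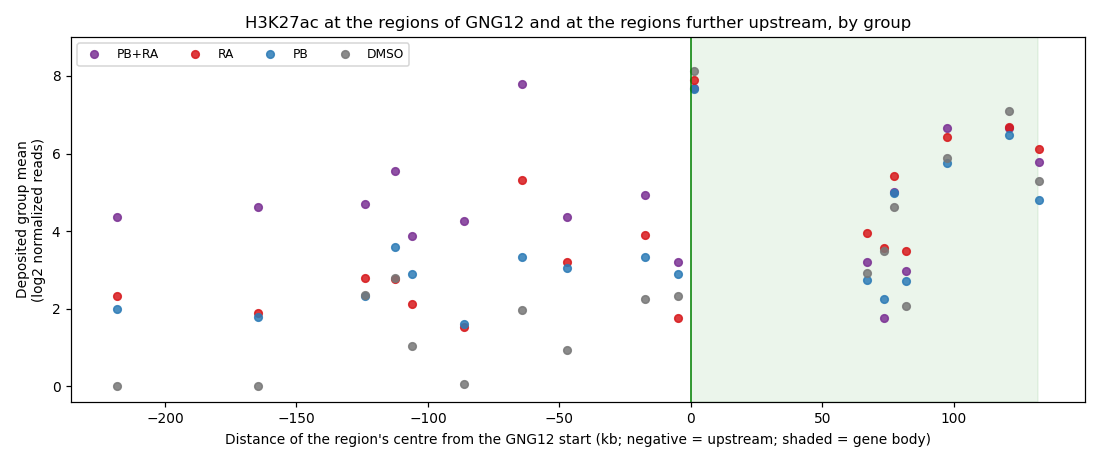
Deposited group means (vertical axis, log2 normalised reads, not scaled to region length) at the 13 GNG12 regions and the 5 regions further upstream, against the distance of each region's centre from the GNG12 start (horizontal axis, kb, negative upstream, gene body shaded). PB+RA is the highest of the 4 groups at every upstream region, up to 7.80, and the 4 groups lie between 7.65 and 8.13 at the start.

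Over the 30 regions, 23 differed by at least 1 on the log2 scale between RA and DMSO, the contrast on which 4 of the genes are taken as selected, and 14.6% of all regions did. None differed by as much downward. Between PB+RA and DMSO 18 of the 30 did so upward, against 19.8% of all regions, and between PB and DMSO 9 did, against 7.27%. Of those 9, 5 are at TEX101 and 4 at GNG12. Between PB+RA and PB, 20 of 30 differed by at least 1, against 12.4% of all regions, and the 10 others were 9 at GNG12 and the TEX101 start-site region. The median difference of PB+RA from PB was 1.54 over the 30 regions and 0.11 over all regions. Between PB+RA and RA the median was -0.03 over the 30 regions, 6 were at least 1 higher in PB+RA, of which 5 are the upstream GNG12 regions, and 3 at least 1 lower. The comparisons against DMSO share the DMSO libraries and are set side by side only as values.

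By presence of peaks, in 7 of the 30 regions all 4 RA libraries and none of the 4 DMSO libraries had a peak, against 2.92% of all regions, and none of the 7 was at GNG12. For PB+RA against PB it was 6 of 30, against 2.97%. The top GJA5 region was not among them because of the short peak in PB replicate 3. The genes taken as selected on RA against DMSO stood at ranks 5 (PAWR), 6 (GJA5), 11 (TEX101) and 14 (POU2AF3, a difference of 4.77). The next region, at rank 15, differed by 4.72 and had no start site within 100 kb. The regions between them lie near SLC5A7, ZNF726, CD177 and AHR or have no start site within 100 kb.

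The profiles of the loci over the 16 libraries were compared with those of every other gene by Pearson's r of log2(kb + 1), as a description, since all points come from the same libraries and groups. The genes most like GJA5, among those that share no region with it, were CYP26C1 (r = 0.990), POU2AF3 (0.989) and CYP26A1 (0.989). POU2AF3 was most like CYP26A1 (0.993), CYP26C1 (0.993) and VPS13D (0.992), and PAWR most like POU2AF3 (0.991), CYP26C1 (0.990) and CYP26A1 (0.990). CYP26A1 and CYP26C1 encode enzymes that break down retinoic acid, and share 1 region. Their loci averaged 12.8 and 13.2 kb in PB+RA, 11.77 and 12.04 kb in RA, 0.0400 kb each in PB and 0 kb in DMSO. TEX101 was most like SMPX (0.988), VPS13B (0.985) and HGF (0.985). GNG12 had no such close match, with TTC39A (0.917), COLEC12 (0.913) and ERMAP (0.910) at the top, and its r with the other 4 loci was 0.585 to 0.693.

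Relatives of the 5 genes were counted in the same limma test, in which 10.8% of all genes tested rose and 3.07% fell. Of 20 other connexin genes, 11 were tested, 1 rose with PB+RA over PB and none fell, with a median of 0.13 on the log2(kb + 1) scale, against 0.07 over all genes tested. The connexin that rose was GJA10, a connexin of retinal horizontal cells in the mouse, with 8.61 kb in PB+RA and 4.22 kb in PB (0.88, limma adjusted p = 7.28e-04). Of 6 POU2F factors and coactivators 3 were tested, none rose, and POU2F3, the partner of POU2AF3, fell to 5.58 kb in PB+RA, against 11.5 kb in PB (-0.996, limma adjusted p = 0.0217). The median of the 3 was 0.01. POU2AF1 and POU2AF2 had too few kb under peaks for the test. The POU2AF1 region had means of 4.45 in PB+RA and 2.14 in PB.

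Of 14 partners and cofactors of PAWR, all were tested, 2 rose and 1 fell, with a median of 0.00, against 10.8% and 3.07% of all genes. One of those that rose, SLC5A7, the choline transporter of cholinergic neurons, had 4.07 kb in PB+RA and 0 kb in PB. It passed the filter through PB+RA alone and lies among the top-ranked regions by RA minus DMSO, so its difference is a description with no test. PRKCI, an atypical protein kinase C that PAWR binds, had 4.13 kb in PB+RA and 1.83 kb in PB (adjusted p = 6.12e-04 in limma). WT1, the zinc finger factor that gave PAWR its name, fell to 3.28 kb in PB+RA, against 7.75 kb in PB (-1.04, limma adjusted p = 5.76e-03). Of 11 LY6/uPAR genes 5 were tested, with a median of 0.08. CD177 alone was counted as risen, and none fell. Its regions adjoin those of TEX101, and it lies among the top-ranked regions by RA minus DMSO. The CD177 difference of 2.68 is therefore a description with no test. Of 16 G protein gamma and beta subunits 15 were tested, with a median of 0.00, of which 2 rose and 1 fell, against 10.8% and 3.07% of all genes. GNG2 had 88.4 kb in PB+RA and 52.6 kb in PB (limma adjusted p = 4.18e-03), GNG8 had 22.5 kb in PB+RA and 15.9 kb in PB (limma adjusted p = 0.0163), and GNG11 fell to 2.37 kb in PB+RA, against 5.84 kb in PB (limma adjusted p = 1.56e-03).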

How the data were processed

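The 16 ChIP libraries, 4 in each group named in the sample titles, were used through the authors' peak lists and group tables, and the 16 input libraries carry no values of their own here. Per the submitters' processing notes, trimming was by fastp 0.12.4, alignment by Bowtie2 2.4.4 to hg19, broad peak calling per library by MACS2 2.2.7.1 and the comparison of groups by DiffBind 3.4, over regions with peaks in at least 2 of 4 libraries of a group. Each deposited peak has a fold enrichment over its input (a ratio, as the authors gave it) and a deposited −log10 q. The group tables hold deposited log2 means of normalised reads, printed as the authors' means with no SD. They also hold the authors' own folds, p-values and FDRs, which were not used. The scaling between libraries is not given in the sources used here. The medians of the deposited log2 means over all regions were close (5.28 in PB+RA, 5.23 in RA, 5.09 in PB and 5.08 in DMSO), so a global shift of the mark could be hidden, and a peak can be missed in a shallow library.

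Region starts, counted from 0 in the tables, are printed counted from 1. Genes came from GENCODE release 44 on GRCh37, with 78714 protein-coding start sites. Bases under peaks were summed over the regions of each gene. PB+RA was compared with PB by limma 3.58.1 (R 4.3.3, trended variances, Benjamini-Hochberg adjustment over 14831 genes with a mean of at least 0.5 kb, adjusted p under 0.05) on log2(kb + 1), where a fold understates the change of small loci. The difference of means in kb was also tested exactly over all 70 two-sided arrangements. No test is given for GJA5, POU2AF3 and PAWR, which passed the filter through PB+RA alone, nor for GNG12, treated as selected on PB+RA. The limma step was tested on simulated data. As a check of pairing, same-numbered PB+RA and PB libraries deviated together from their group means over 14831 genes (r 0.14 to 0.31). Differently numbered libraries did so too within replicates 1 and 2 (r 0.31 and 0.17) and within 3 and 4 (0.24 and 0.28). All other combinations had a negative r, and 1 of 4 PB+RA libraries matched best with its own number. Pairs are thus not clearly shown, and the numbers in the titles were taken as pairs only in the alternative with a replicate block.

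The members and gene lists were chosen with earlier results of these data known. All 5 members were named, with all their regions, the region next in rank, the 3 genes most alike in profile, and the listed relative with the largest difference of PB+RA from PB. Relatives called by limma and neighbouring genes were named after their values were seen. Alternatives were the peak threshold, pseudocount, filter, scaling, distance, fit over all libraries, replicate block and leaving out each library. Some results on single markers and sequence elements are not reported here.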

Additional observations from a re-analysis of the deposited data

Results flagged for a closer look

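Of 16 sets of 4 libraries with some spread (5 loci, 4 groups), 2 held a library far from the others in kb under peaks, where chance flags about 1 in 20 sets of continuous values. In both, the 3 other libraries held exactly 0 kb, so that a single peak of any length sets a library apart. At GJA5, PB replicate 3 held 0.198 kb and the other PB libraries 0 kb. At POU2AF3, DMSO replicate 4 held 0.313 kb and the other DMSO libraries 0 kb, in the region that overlaps POU2AF2.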

How the results depend on the processing

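TEX101 rose with PB+RA over PB in limma under each of 17 alternatives, with adjusted p up to 9.02e-03. Like the main test, these fits are not shown to be independent of the choice of TEX101. The fit over all 16 libraries also takes in the RA and DMSO libraries, on which TEX101 is taken as selected. At GJA5, POU2AF3 and PAWR, for which no test is given, the log2 difference depended on the pseudocount: it was 4.33, 5.31 and 3.22 with 0.2 kb and 0.93, 1.36 and 0.42 with 5 kb. PAWR could not be fitted with peaks of −log10 q of at least 5, where it fell under the filter. The replicate block cannot move the log2 differences (2.42, 3.13, 1.42 and 2.32, and 0.85 at GNG12), because both groups hold every replicate number. With it the TEX101 call did not change, and 1482 genes rose and 366 fell. Leaving out 1 library gave 2.29 to 2.52 at GJA5, 3.02 to 3.25 at POU2AF3, 1.38 to 1.49 at PAWR, 1.92 to 2.57 at TEX101 and 0.76 to 0.93 at GNG12. GNG12 moved to 0.57 with a pseudocount of 5 kb, to 0.43 with start sites within 50 kb, which drops upstream regions, and to 0.54 over all peaks within 100 kb of the gene. With a minimum difference of 2, 14 of 30 regions passed for RA against DMSO and 12 for PB+RA against PB. Regions with peaks in all libraries of a group and none of the other numbered 7 to 9 for RA against DMSO and 6 to 7 for PB+RA against PB when 1 library was left out. Over all genes, 1603 rose and 456 fell (77.9% upward). Scaling to each library's kb under peaks gave 1683 and 1363 (55.3% upward), the stricter q gave 338 and 100, and leaving out 1 library gave 1042 to 2078 and 231 to 590. The lowest of these, 1042, was without PB+RA replicate 1, and 231 without PB replicate 1. The cause was not tested.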
